A study of Mus musculus with 6 samples.

Results

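The insulin-like growth factor (IGF) system was described in the mouse line mDCT15, which derives from the distal convoluted tubule of the kidney. Its 10 listed genes encode the ligands IGF1 and IGF2, the receptors IGF1R, IGF2R and INSR, and the binding proteins IGFBP2 to IGFBP6. They were found by gene symbol, and 9 of the 10 were among the 20624 genes analysed, namely 2 ligands, 3 receptors and 4 binding proteins. The level of *Igfbp3* was not analysed here. The list was selected on the function of the genes and on the authors' own genotype comparison, in which *Igf1* had drawn attention to the system, and the values of that comparison are not used or given here.

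RNA was sequenced after depletion of ribosomal RNA from 3 samples of wild type cells and 3 samples of Pkd1-/- cells, 6 in all. The Pkd1-/- cells were made from the same line by CRISPR/Cas9 editing of *Pkd1*, which encodes polycystin-1, and the sample titles call them Pkd1-/- while the genotype label calls them PKD1 knockdown. Whether they are 1 clone is not given in the sources used here. Both were grown in the same medium with fetal bovine serum. The value available for each gene is the authors' mean normalized count, a single mean over all samples of both genotypes. It has no spread between replicates and no value for either genotype, so no error or test goes with it. The fold changes, errors and p-values that the authors give beside it were left out by choice, since they are results of the study itself, so no genotype difference is given. The targeted gene could not be checked per sample, and the depth of each library is unknown. A mean over both genotypes can also stand for a gene that was counted in 1 genotype alone, and in bulk RNA fewer cells that express a gene and less RNA per cell cannot be told apart.

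In this system IGF1 and IGF2 are secreted peptides related to insulin. They signal through IGF1R, a receptor tyrosine kinase that is closely related to the insulin receptor INSR and can pair with it. IGF2R, the cation-independent mannose 6-phosphate receptor, takes up IGF2 for breakdown in lysosomes and sorts lysosomal enzymes. The binding proteins hold the ligands outside the cell and can lower or raise their access to the receptors. In the kidney the system acts on growth of the tubule and on the size of the organ.

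By mean normalized count, the receptors and a single binding protein were at high levels in mDCT15 cells. On the same measure 1 ligand was near the middle of all genes, and the other ligand and 2 binding proteins were far below it. *Igfbp2* had the highest mean normalized count of the IGF genes, 7126, followed by *Igf2r* with 4818, *Igf1r* with 4136 and *Insr* with 2141. *Igf1* had a mean normalized count of 376 and *Igfbp4* of 144. These 6 lay above the median of all genes, which was 104.5. *Igfbp5* had a mean of 10.2, *Igf2* of 7.21 and *Igfbp6* of 2.12, well below that median. That place depends on the genes counted, since among protein-coding genes *Igf1* was at percentile 45.1 and *Igfbp4* at percentile 30.4, under the median there. A mean of at least 100 was reached by 6 of the 9 genes and by 50.3% of all genes. *Igf1* was picked on values of the same samples and could reach that mean through 1 genotype alone, so nothing about the group is read from this count.

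**Figure D1:**
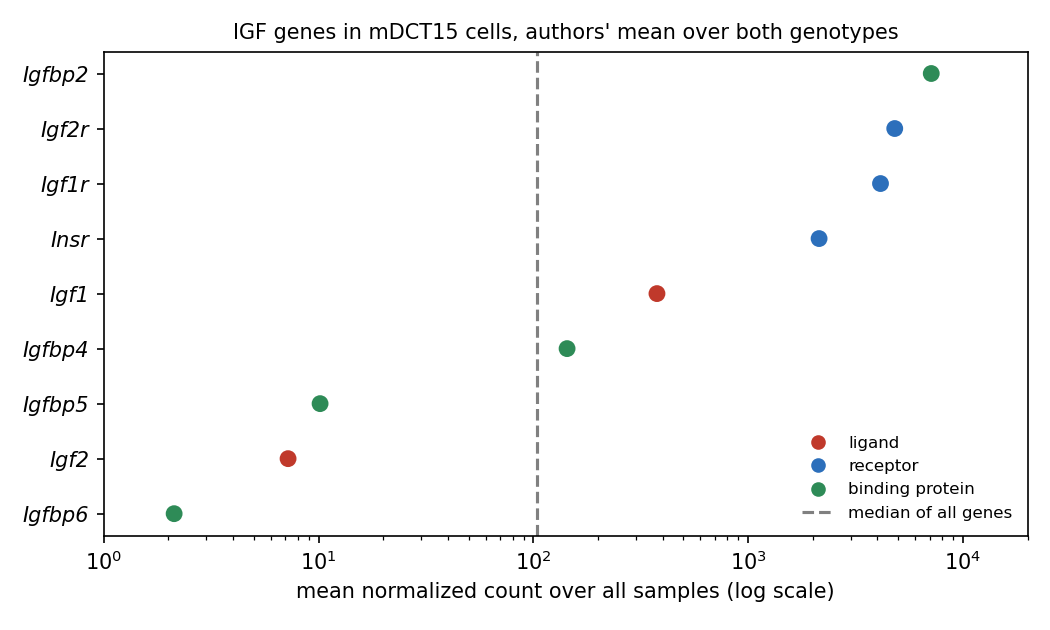
Mean normalized count of each of the 9 IGF genes on a logarithmic axis, 1 point for each gene, coloured by class, with the median of all genes as a dashed line. The values run from 2.12 for *Igfbp6* to 7126 for *Igfbp2*, and 6 genes lie to the right of the median of 104.5.

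The 4 promoters that stand for this spread of levels are shown here, because they belong to a ligand (*Igf1*), a receptor (*Igf1r*) and the neighbouring pair *Igfbp2* and *Igfbp5*, which lie far apart in level. Each is the window from 250 bases before to 50 bases after an annotated start, from RefSeq on the assembly GRCm38.p6. The capitals mark CG dinucleotides, the bases at which DNA methylation occurs in mammals.
*Igf1* promoter window (GRCm38.p6, chr10:87860861-87861160, plus strand): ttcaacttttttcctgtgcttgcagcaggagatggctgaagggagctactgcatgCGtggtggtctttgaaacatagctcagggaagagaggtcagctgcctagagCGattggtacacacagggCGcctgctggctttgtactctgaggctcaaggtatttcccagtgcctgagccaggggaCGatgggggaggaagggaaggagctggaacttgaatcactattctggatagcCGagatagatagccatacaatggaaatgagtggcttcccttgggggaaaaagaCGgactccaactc
*Igf1r* promoter window (GRCm38.p6, chr7:67952007-67952306, plus strand): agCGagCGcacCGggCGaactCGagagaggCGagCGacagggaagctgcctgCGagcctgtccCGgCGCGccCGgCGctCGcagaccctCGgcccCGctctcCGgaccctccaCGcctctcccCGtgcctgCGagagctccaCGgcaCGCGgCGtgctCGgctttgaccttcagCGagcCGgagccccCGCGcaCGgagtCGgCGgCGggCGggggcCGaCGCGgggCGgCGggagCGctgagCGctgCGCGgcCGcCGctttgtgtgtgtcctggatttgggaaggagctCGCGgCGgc
*Igfbp2* promoter window (GRCm38.p6, chr1:72824230-72824529, plus strand): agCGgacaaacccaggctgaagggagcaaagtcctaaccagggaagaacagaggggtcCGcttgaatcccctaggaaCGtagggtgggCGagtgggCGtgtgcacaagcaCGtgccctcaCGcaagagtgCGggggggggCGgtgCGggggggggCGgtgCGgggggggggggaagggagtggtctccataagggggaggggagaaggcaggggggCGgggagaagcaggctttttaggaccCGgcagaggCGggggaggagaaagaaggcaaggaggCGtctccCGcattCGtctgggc
*Igfbp5* promoter window (GRCm38.p6, chr1:72874816-72875115, minus strand): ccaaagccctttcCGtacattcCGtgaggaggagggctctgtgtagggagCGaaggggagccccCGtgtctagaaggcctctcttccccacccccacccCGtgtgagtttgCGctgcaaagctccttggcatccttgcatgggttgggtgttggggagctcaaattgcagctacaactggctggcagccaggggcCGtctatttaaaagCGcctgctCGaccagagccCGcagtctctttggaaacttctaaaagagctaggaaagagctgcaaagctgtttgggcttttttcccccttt

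The *Igf1r* window was dense in CG and the *Igf1* window was not. Each of these genes had 1 window, so any other start of the gene is not covered by its count. There were 48 CG dinucleotides in the window of *Igf1r*, at percentile 98.9 of all 32851 windows of the same length, and 6 in that of *Igf1*, at percentile 45.7. *Igf2r* had 34, *Igfbp3* 37, *Igfbp4* 27, *Igfbp5* 10 and *Igfbp6* 8. *Igfbp2* had 2 annotated windows with 18 and 14, and *Igf2* had 4 windows with 2, 14, 24 and 7. At least 1 CG occurs in 94.6% of all windows, with a median of 7. *Insr* had no window in the table.

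Among the genes that had a promoter window, which are only a part of the genes analysed, those with higher counts had more CG by the median. Taking the window with most CG for each gene, the median was 24 (quartiles 17 and 31) where the mean reached 100 (8161 genes) and 11 (quartiles 5 and 23) where it did not (3711 genes). A gene with more annotated windows can only gain by this choice, and the number of windows was not matched between the groups. *Igf1*, with 6, lay under the lower quartile of the first group, and *Igf1r* and *Igf2r* lay over its upper quartile. *Igf2*, with 24 in the richest of its 4 windows, was just over the upper quartile of the second group. The hexamer TATAAA, searched on both strands, was in 1 window each of *Igfbp4* and *Igfbp6* and in 13.6% of all windows. The hexamer GGGCGG, which contains a CG and was also searched on both strands, was in 5 of the 13 windows of 9 genes (*Igfbp3* included), those of *Igf1r* (2 matches), *Igf2r* (3), *Igfbp2* (3) and a pair of *Igf2* windows (1 and 2), and in 35.7% of all windows. These are matches of letters only.

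**Figure D2:**
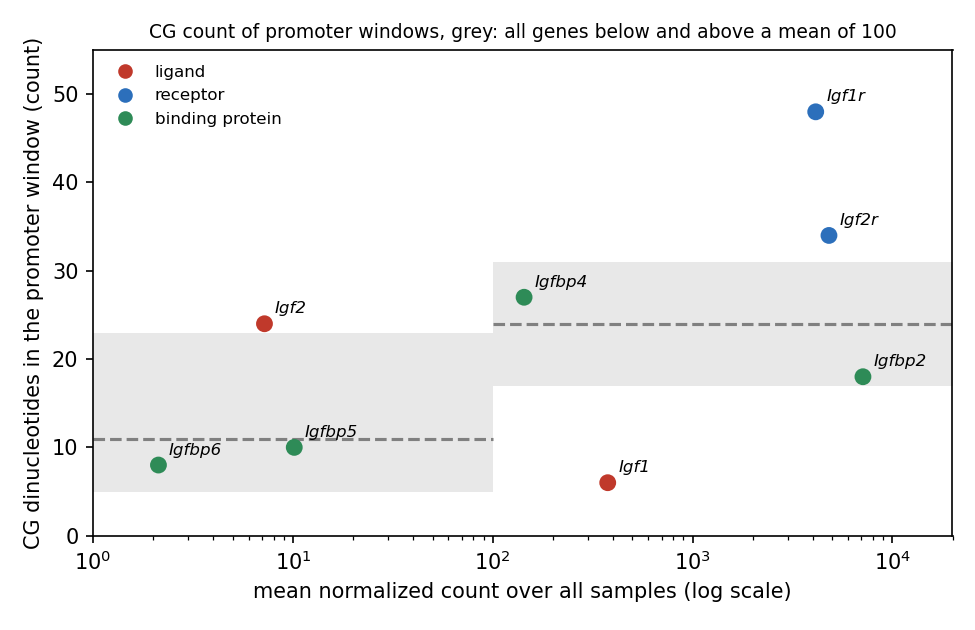
Count of CG dinucleotides in the richest promoter window of each IGF gene (vertical axis) against its mean normalized count (horizontal logarithmic axis), 1 point for each of the 8 genes with both. The grey bands are the quartiles and the dashed lines the medians of all genes with a window, below and above a mean of 100. *Igf1* with 6 lies under its band, *Igf1r* with 48, *Igf2r* with 34 and *Igf2* with 24 lie over theirs, and the other 4 genes lie within.

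Both ligand genes had lower mean normalized counts than the receptors, with *Igf1* above *Igf2* in the mean over both genotypes. *Igf1* was picked for its difference between the genotypes in the authors' comparison, so its level, its ratio to *Igf2* and its share need not hold in either genotype alone. *Igf1* (ENSMUSG00000020053, plus strand of chromosome 10 from 87693642 to 87772904, with all gene positions from GENCODE on GRCm39) had a mean normalized count of 376, at percentile 62.8 of all genes. *Igf2* (ENSMUSG00000048583, minus strand of chromosome 7 from 142204503 to 142220694), a growth factor of the fetus that is imprinted and expressed from the paternal copy, had a mean normalized count of 7.21, at percentile 30.2. Since a longer transcript gives more reads, levels of different genes were compared after division by the length of the merged exons in kilobases. On that scale the level of *Igf1* was 36.8 per kilobase, at percentile 53.1, and that of *Igf2* was 1.17 per kilobase, at percentile 13.7. The ratio was 31.4, and *Igf1* made up 96.9% of their sum. With coding length in place of merged exons the ratio was 54.5. Per kilobase of coding length *Igf1* (686) was above *Igf2r* (647) and *Insr* (520), though below *Igf1r* (985). The lncRNA gene *Igf2os*, which lies over *Igf2* on the opposite strand, had a mean normalized count of 2.93, and with so few reads the value of *Igf2* is uncertain.

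The 3 receptor genes were all well counted. *Igf2r* (ENSMUSG00000023830, minus strand of chromosome 17 from 12901293 to 12988614) was at percentile 97.6, *Igf1r* (ENSMUSG00000005533, plus strand of chromosome 7 from 67601518 to 67883416) at percentile 96.8 and *Insr* (ENSMUSG00000005534, minus strand of chromosome 8 from 3172061 to 3329647) at percentile 91.2 by mean normalized count. Of all genes, 494 had a higher mean than *Igf2r*. Per kilobase of merged exons the level was 514 for *Igf2r*, 209 for *Igf1r* and 155 for *Insr*. On that scale *Igf2r* was at percentile 95.0, *Igf1r* at 84.1 and *Insr* at 78.7, each lower than by count. The order of the first pair depended on the length used. The ratio of *Igf2r* to *Igf1r* was 2.46 with merged exons, 1.63 with the longest transcript and 0.657 with the coding length, since the coding part is a far larger share of the *Igf2r* transcript. *Igf1r* was above *Insr* with each of the 3 lengths, with ratios from 1.35 to 1.89.

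Among the binding proteins, nearly all of the level lay in *Igfbp2*. *Igfbp2* (ENSMUSG00000039323, plus strand of chromosome 1 from 72863606 to 72891634) was at percentile 98.9 of all genes by mean normalized count, with 237 genes above it. Its level of 3428 per kilobase, at percentile 99.7, was 99.0% of the sum over the 4 binding proteins, and with coding length it was 97.4%. *Igfbp4* (ENSMUSG00000017493, plus strand of chromosome 11 from 98932064 to 98945218) came next with 32.5 per kilobase, 106 times lower. *Igfbp5* (ENSMUSG00000026185) and *Igfbp6* (ENSMUSG00000023046, plus strand of chromosome 15 from 102052697 to 102057953), whose product binds IGF2 in preference to IGF1, had 1.69 and 1.54 per kilobase.

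*Igfbp2* and *Igfbp5* are neighbours. *Igfbp5* is transcribed from the minus strand, between positions 72897091 and 72914043 of chromosome 1, so that the ends of these genes face each other with 5456 bp between them. Their levels per kilobase differed by a ratio of 2026 with merged exons, 2812 with the longest transcript and 609 with coding length. *Igfbp5* had a mean of only 10.2, so the size of this ratio is uncertain. The gene on the other side of *Igfbp2*, at a distance of 107512 bp, was the ribosomal protein gene *Rpl37a* with 271 per kilobase, counting only protein-coding genes with a value. *Igfbp4* also lay beside genes of unlike level, with the topoisomerase gene *Top2a* at 2246 per kilobase on one side and *Tns4* at 0.267 on the other.

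**Figure D3:**
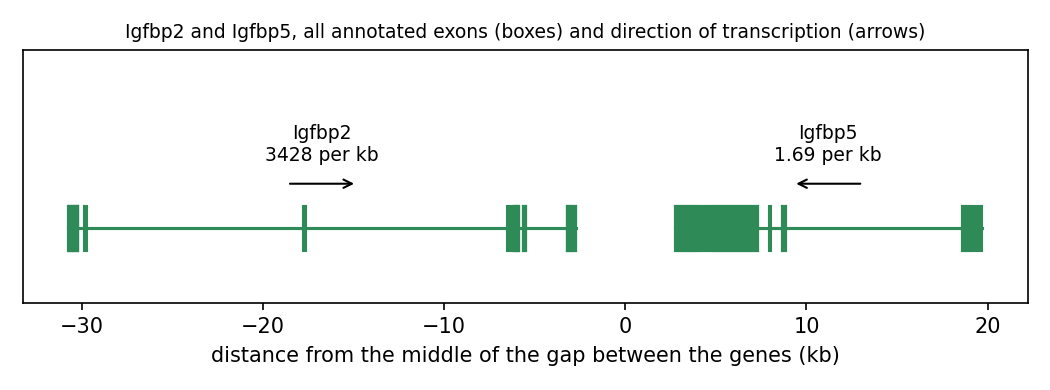
Map of *Igfbp2* and *Igfbp5* to scale, with distance in kilobases from the middle of the gap between them, all annotated exons as boxes, arrows for the direction of transcription and the level per kilobase of merged exons above each gene. The genes point towards each other across 5456 bp, with 3428 per kilobase for *Igfbp2* and 1.69 for *Igfbp5*.

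Ordered by level per kilobase of merged exons, the genes ran *Igfbp2*, *Igf2r*, *Igf1r*, *Insr*, *Igf1*, *Igfbp4*, *Igfbp5*, *Igfbp6* and *Igf2*. The widest step was from *Igfbp4* to *Igfbp5*, a ratio of 19.2, and the next was from *Igfbp2* to *Igf2r*, a ratio of 6.67. *Igf1* and *Igfbp4* were separated by a ratio of 1.13, *Igfbp5* and *Igfbp6* by 1.10, *Igfbp6* and *Igf2* by 1.32, and *Igf1r* and *Insr* by 1.35. Without a spread between samples, none of these steps can be said to exceed the replicate error. *Igf1* moved most with the length. It stood at 36.8 per kilobase of merged exons and 686 per kilobase of coding length, because its transcripts are long and its coding sequence of 549 bases is the shortest of the group, and it then ranked 3 in place of 5.

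**Figure D4:**
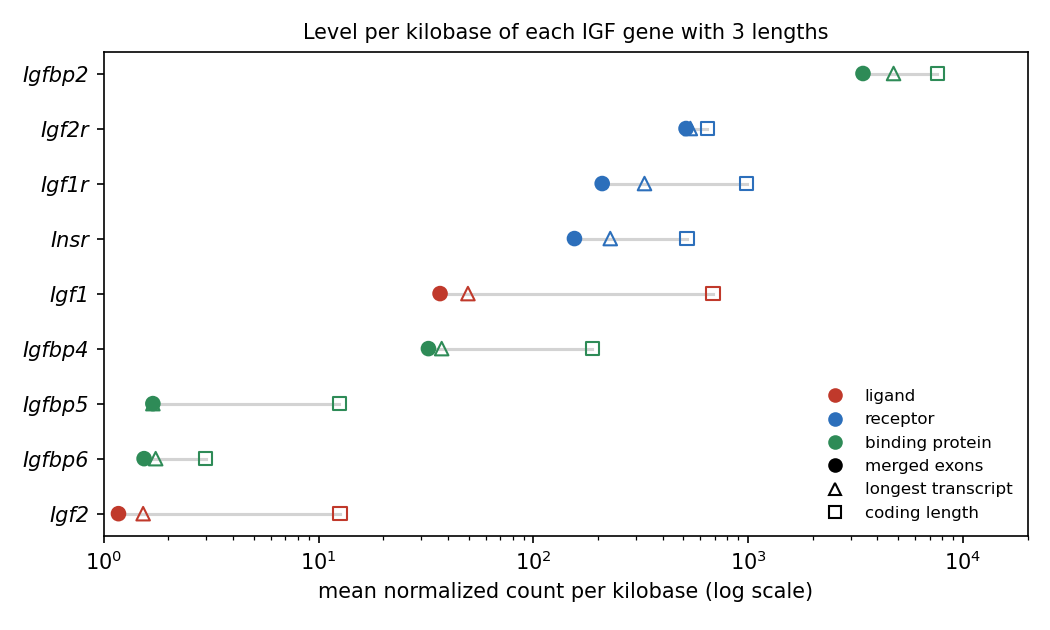
Level of each IGF gene per kilobase on a logarithmic axis, with filled circles for merged exons, triangles for the longest transcript and squares for the coding length. *Igfbp2* is highest with each length, from 3428 to 7613, *Igf1* moves from 36.8 to 686, and *Igfbp5*, *Igfbp6* and *Igf2* stay at or under 12.6.

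Further genes of the pathway were taken from lists of 36 genes, of which 30 were analysed and 25 had a mean of at least 100. That mean was reached by 50.3% of all genes, which include genes that do not encode proteins. The share is higher among protein-coding genes, where *Igfbp4*, with a mean of 144, was at percentile 30.4. Nothing about the pathway as a group is read from these counts. All 12 genes of the PI3K-AKT branch had a mean of at least 100. They ran from 775 for *Foxo1*, a transcription factor that AKT holds in the cytoplasm, to 4466 for *Gsk3b*, a kinase that AKT inhibits. Their levels per kilobase ran from 73.1 for *Pik3r1*, a regulatory subunit of PI3K, to 484 for *Akt1*, with a median of 277. The median of all genes, coding or not, was 28.6.

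Of the receptor family and its adaptors, 9 of 10 were analysed and 7 had a mean of at least 100, beside 50.3% of all genes. *Grb10*, an imprinted adaptor that inhibits signalling of both receptors, was highest with a mean normalized count of 11631 and 1135 per kilobase. The docking proteins *Irs1* and *Irs2* had 151 and 253 per kilobase of merged exons, beside 155 for *Insr* and 209 for *Igf1r*. These genes were set side by side with that length only, and without a spread between samples. *Insrr*, the third gene of the receptor family, had a mean of 1.32.

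Outside the cell the picture was uneven. Of the other binding proteins, *Igfbp7*, which binds IGFs weakly, had 155 per kilobase, above each IGF binding protein gene described here except *Igfbp2*. *Igfals*, which encodes the acid-labile subunit of the circulating complex, had a mean of 1.11. Among the proteases that cut binding proteins, *Htra1* had 773 per kilobase and *Pappa*, which cuts IGFBP4, had 0.648. *Stc2*, an inhibitor of PAPPA, had 42.5 per kilobase and *Stc1* had a mean of 0.686. The insulin genes *Ins1* and *Ins2*, and *Igfbp1*, *Igfbpl1*, *Pappa2* and *Irs4*, were not analysed here. The 3 genes of the IGF2BP family, which bind *Igf2* mRNA among many others, were well counted, with 149 per kilobase for *Igf2bp1*, 290 for *Igf2bp2* and 108 for *Igf2bp3*, while *Igf2* itself had 1.17.

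**Figure D5:**
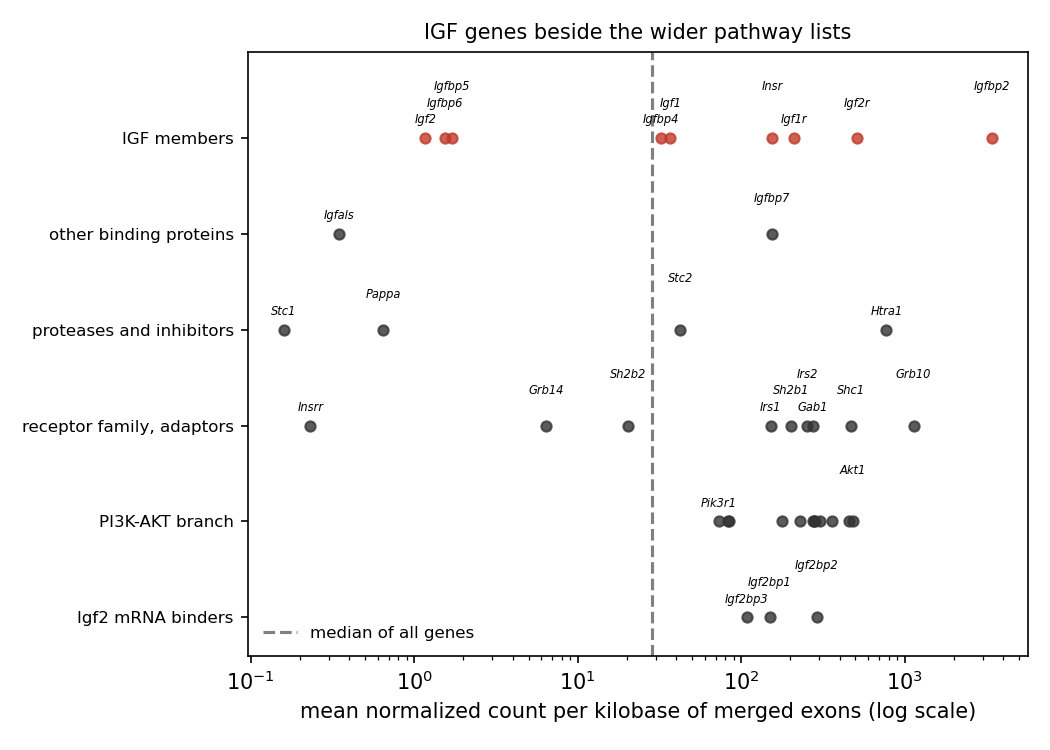
Level per kilobase of merged exons (horizontal logarithmic axis) for the 9 IGF genes in red and the 30 genes of the wider lists in dark grey, 1 point for each gene in a row for each list, with the median of all genes (28.6) as a dashed line. All 12 PI3K-AKT genes lie to the right of the line, from 73.1 to 484, and only the lowest and highest of them are named there.

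The label of the cells was set beside marker genes. Of 10 markers of the distal convoluted tubule, 6 were analysed and 3 had a mean of at least 100, a mean reached by 50.3% of all genes. These were *Wnk1* (8468), *Kcnj16* (428) and *Wnk4* (413), while *Kcnj10* (38.3), *Trpm6* (29.6) and *Klhl3* (5.70) were below it. The defining sodium chloride cotransporter gene *Slc12a3*, *Pvalb*, *Calb1* and *Fxyd2* were not analysed here. Of 8 genes of kidney epithelium, 6 were analysed and 5 had a mean of at least 100, from *Epcam* at 115 to *Cdh16* at 4680 and *Pax8* at 4905. *Krt8* was at 0.980, and *Cdh1* and *Krt18* were not analysed here. Among 12 markers of other cells, 8 were analysed, and *Lrp2* of the proximal tubule (8826) and *Col1a1* of fibroblasts (201) passed the same mean. The others lay from 2.44 to 41.9. The part of any other cell type in the IGF values was not tested.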

How the data were processed

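RNA of 3 Pkd1-/- and 3 wild type mDCT15 samples, grouped by their titles, was sequenced. The authors trimmed reads with Trim Galore 0.4.5, mapped with STAR 2.7.5a to GRCm39 (Ensembl 105), and counted them per gene with HTSeq 0.11.0 at default settings before a genotype comparison by the authors in DESeq2 1.22.0 (R 3.5.3). The deposited mean normalized count is a signal, the mean over all samples of counts that the authors scaled by library size factors. A minimum of 5 counts per sample is stated, yet 5385 genes (26.1%) have a mean below 5. The authors' table also holds fold changes, their errors, a test statistic and p-values of the authors' own comparison, which were not used. No sample had a value of its own here, so the planned test of genotypes was not made and no sample enters a comparison. The mean counts sum to 16746088. This sum is not the depth of a sample, and the precision of each mean is unknown.

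The identifiers were matched to the GENCODE M39 annotation of GRCm39, a later release than the authors' on the same assembly, in which 20122 (97.6%) were found. The mean was divided by the length of merged exons, the longest transcript or the coding length (3 times the protein length). A percentile is the share of genes at or below a value. For 7 symbols with more than 1 identifier, the higher mean was used in lists. Promoter windows came from RefSeq on GRCm38.p6, matched by symbol for 9 of the 10 genes, and their coordinates were not mixed with those of GRCm39. No protein table was used, so protein identity was not computed. The length and percentile steps were tested on simulated data. The genes named are the listed IGF genes and the written lists of pathway and marker genes, of which 1 is counted but its value is not reported here, and neighbouring and overlapping genes were added after their values were seen. These lists were chosen with earlier results of these data known. The tools were Python 3.11.15 with pandas 2.3.3, numpy 2.4.6, matplotlib 3.10.9 and scipy 1.17.1. Alternatives were other lengths, other minimum means and other sets of genes for the percentile.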

Additional observations from a re-analysis of the deposited data

How the results depend on the processing

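The order of the 9 genes per kilobase depended on the length. With the longest transcript, 2 genes changed rank (*Igfbp5* and *Igfbp6* changed places), and with 3 times the protein length 7 did, all but *Igfbp2* and *Igfbp4*. The number of genes with a mean of at least 100, which was 6, was 7 at a minimum of 10 and 4 at a minimum of 1000. All 6 wider lists, of which the insulin genes had none analysed, stayed within 1.5 times their count at a minimum of 10. The lists were not compared in this way at a minimum of 1000, which 19 of the 30 genes passed in place of 25. Percentiles fell in each of the other gene sets, by up to 5.47 points when genes under a mean of 1 were left out, by up to 33.4 points when those under 10 were (which leaves 7 IGF genes, with *Igfbp5* at percentile 0.270), and by up to 22.0 points among protein-coding genes. *Igf1* and *Igfbp4*, above the median of all genes, were under it at percentiles 44.1 and 28.4 without genes under a mean of 10 and at 45.1 and 30.4 among protein-coding genes, and *Igfbp4* was at 49.3 without those under 1. No paired analysis was possible because the values are means over all samples and the genotypes were not tested. For the same reason, leaving out a replicate, another normalization and the identity between proteins were not run. At a mean of about 10 or below, as for *Igfbp5*, *Igf2* and *Igfbp6*, few reads stand behind a value.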
